A study of Mus musculus with 15 samples.

Results

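The 5 globin and erythroid genes *Hba-a1*, *Hba-a2*, *Hbb-bs*, *Hbb-bt* and *Alas2* were described across the whole-skin libraries of the study. They were picked by name from the 55487 genes of the count table, with earlier results of these data known. Of the 5, 4 were found by their symbol, and *Hbb-bs*, which the deposited counts list as *Hbb-b1*, was found by its Ensembl identifier ENSMUSG00000052305. All 5 passed the filter on low counts in every comparison.

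Adult haemoglobin is a tetramer that pairs alpha globin chains, encoded by *Hba-a1* and *Hba-a2*, with beta globin chains, which in C57BL/6 mice are encoded by *Hbb-bs* and *Hbb-bt*. *Alas2* encodes the erythroid form of 5-aminolevulinate synthase, the rate-limiting enzyme of haem synthesis in red cell precursors, and is carried on the X chromosome. Globin transcripts are made in erythroblasts and are retained in reticulocytes, so in a piece of skin they are usually taken as a sign of the blood it holds.

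The libraries came from skin of C57BL/6 mice aged 3 weeks, with 5 libraries in each of 3 groups. The first group, WT, was *Otulin* fl/fl mice without Cre. The second was skin labelled non-lesional and the third skin labelled lesional, both from OTULIN-KO mice, which were *Otulin* fl/fl with K14-Cre. The loxP-flanked *Otulin* alleles are therefore shared by all 3 groups, and Cre, driven by the keratin 14 promoter, deletes *Otulin* in keratinocytes only, so that dermal, blood and muscle cells of OTULIN-KO skin retain the gene. The sources used here do not say whether lesional and non-lesional pieces came from the same mice. Each library is named below by the number in its label. The labels do not name the mice, so the p-values below measure only the spread between these samples, part of which may be technical.

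The libraries held between 1962604 and 2567138 counts, and the labelled tissue was matched by its markers, since keratinocyte and fibroblast genes were abundant in every library. Skeletal muscle genes were abundant too. Their summed level was 12184 to 23136 CPM in WT, 11800 to 21740 CPM in non-lesional and 2558 to 25819 CPM in lesional libraries. *Otulin*, read at the 3′ end of its transcript in whole skin, stood at 23.1 ± 6.5 CPM (counts scaled to library size) in WT, 26.2 ± 4.2 in non-lesional and 24.8 ± 3.4 in lesional libraries (mean ± SD, n = 5 each), and a read at the 3′ end need not lie in the deleted part of the gene, so this does not check the knockout. *Krt6b*, the keratin of hyperplastic epidermis, reached 3569 CPM in lesional replicate 2 and 8822 CPM in lesional replicate 11 but 1.21 to 4.91 CPM in the other 3 lesional libraries, against 1.28 to 17.3 CPM in WT. Among non-lesional libraries it was 223 CPM in replicate 3 and at most 10.2 CPM in the others. Results below that a single library decides are also given without it. Summed Y-linked expression was at or near 0 in WT replicate 1, non-lesional replicate 12 and lesional replicate 11, so each group held 1 such library.

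The alpha genes lie 13 kb apart on chromosome 11 of GRCm38, *Hba-a1* (ENSMUSG00000069919) at chr11:32283511-32284465 and *Hba-a2* (ENSMUSG00000069917) at chr11:32296489-32297298, both on the plus strand. The beta genes lie on the minus strand of chromosome 7, *Hbb-bs* at chr7:103826534-103828096 and *Hbb-bt* (ENSMUSG00000073940) at chr7:103812524-103813996. *Alas2* (ENSMUSG00000025270) lies on the plus strand at chrX:150547375-150570638.

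The members of each globin pair are close copies, which bears on how far their counts can be told apart. The coding sequences of *Hba-a1* and *Hba-a2* are both 429 bases long and differ at 1 base, the substitution C381T, counted from 1 at the A of the start codon of *Hba-a1*. Those of *Hbb-bs* and *Hbb-bt* are both 444 bases long and also differ at 1 base, C417T. The coding stretches around each difference are shown with the differing base in capitals.
Hba-a1: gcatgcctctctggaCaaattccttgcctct
Hba-a2: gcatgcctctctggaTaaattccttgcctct
Hbb-bs: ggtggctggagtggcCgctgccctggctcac
Hbb-bt: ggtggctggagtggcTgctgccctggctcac

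The 3′ ends, where the libraries were read, separate the beta genes better than the alpha genes. Over the last 250 bases of the reference transcripts, 16.2% of the 35-base windows of *Hba-a1* and 23.6% of those of *Hba-a2* were not found in the other transcript. For *Hbb-bs* and *Hbb-bt* these shares were 73.6% and 74.1%. No alpha gene shared a 35-base window with a beta gene in the coding sequence or in the last 250 bases. The authors retained uniquely mapping matches, and reads from stretches that a pair shares may have been dropped or assigned to either copy, so single alpha genes are the least certain of the values below, and the fold change of each summed pair is given in every comparison.

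The promoters are shown as a description, and their part in the levels given below was not tested. RefSeq gives a start for each of the 5 genes on GRCm38.p6, and the 250 bases before it were searched on both strands for GATAA (the core that GATA factors bind), CACCC (bound by Krüppel-like factors), CCAAT and TATAA. The stretches below are read 5′ to 3′ on the gene's own strand and hold no bases that the annotation assigns to an exon of the gene. That of *Hbb-bs* covers only the 83 bases nearest the start. Bases of its promoter beyond the annotated end of the gene, chr7:103828096, lie in no exon of it but are left out too. They hold its GATAA match, 209 to 205 bases before the start. Capitals mark a match on either strand. Adjacent or overlapping matches run together.
Hba-a2, chr11:32296242-32296488: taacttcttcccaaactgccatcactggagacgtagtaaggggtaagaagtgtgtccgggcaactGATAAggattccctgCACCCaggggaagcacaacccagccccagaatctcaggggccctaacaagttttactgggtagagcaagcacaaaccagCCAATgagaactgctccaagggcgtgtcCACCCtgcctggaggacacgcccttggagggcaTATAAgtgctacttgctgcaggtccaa
Hbb-bs, chr7:103827929-103828011: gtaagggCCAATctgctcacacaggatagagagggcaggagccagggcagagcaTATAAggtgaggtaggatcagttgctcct
Hbb-bt, chr7:103813997-103814173: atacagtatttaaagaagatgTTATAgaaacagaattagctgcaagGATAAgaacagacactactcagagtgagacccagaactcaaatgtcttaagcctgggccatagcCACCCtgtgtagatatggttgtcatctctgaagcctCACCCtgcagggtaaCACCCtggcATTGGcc
Alas2, chrX:150547167-150547374: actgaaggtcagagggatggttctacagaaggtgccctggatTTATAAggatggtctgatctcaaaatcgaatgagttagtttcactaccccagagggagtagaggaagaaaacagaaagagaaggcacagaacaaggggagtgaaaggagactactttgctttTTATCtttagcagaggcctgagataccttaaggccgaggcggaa

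Over the whole 250 bases, each of the 4 globin genes held all 4 motifs, whereas *Alas2* held 3 and had no CCAAT. The TATAA match nearest the start of the globins lay 23 to 30 bases before the start, and the one in *Alas2* lay 203 to 208 bases before it, where matches on both strands overlap. Of 32851 mouse promoters of the same length, GATAA was found in 22.6%, CACCC in 52.0%, CCAAT in 33.8%, TATAA in 22.8% and all 4 in 1.0%. The promoters of *Hba-a1* and *Hba-a2* shared an unbroken run of 247 bases, which is why only that of *Hba-a2* is printed, and those of *Hbb-bs* and *Hbb-bt* were 71.7% identical over aligned bases. A match of letters is not evidence that a factor was bound.

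Because the libraries hold reads from the 3′ ends of transcripts, a count needs no division by transcript length, and genes can be ordered on the CPM scale. The order of an alpha against a beta gene also depends on how many reads from stretches shared within a pair were kept, which is not known here and which touches the alpha genes more. *Hbb-bs* was the most abundant of the 5 with a mean of 985 CPM over 15 libraries, at rank 67 of all genes. It was followed by *Hba-a1* with 819 CPM (rank 82), *Hba-a2* with 426 CPM (rank 199) and *Hbb-bt* with 242 CPM (rank 473). *Alas2* averaged 11.2 CPM and ranked 9799. This order of counts was the same in 15 of 15 libraries, as counted. The gap between *Hbb-bs* and *Hba-a1* exceeded counting error in 13 of 15 libraries, and the gaps between the other neighbours did so in all 15. The 4 globins together took 0.147% to 0.233% of the counts of a WT library, 0.166% to 0.616% of a non-lesional library and 0.127% to 0.365% of a lesional library.

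*Hba-a1*, the more abundant alpha gene, was measured at 456, 818, 724, 547 and 595 CPM in WT replicates 1, 4, 7, 10 and 13. In non-lesional replicates 3, 6, 9, 12 and 15 it stood at 543, 713, 867, 2108 and 1055 CPM. In lesional replicates 2, 5, 8, 11 and 14 it stood at 442, 554, 797, 669 and 1390 CPM. Non-lesional replicate 12 was far above the rest, lesional replicate 14 was second, and the ranges of the 3 groups overlapped. *Hba-a2* followed at a lower level, between 230 and 430 CPM in WT, 275 and 1073 CPM in non-lesional, and 238 and 690 CPM in lesional libraries.

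*Hbb-bs*, the more abundant beta gene, was measured at 631, 926, 997, 667 and 738 CPM in WT replicates 1, 4, 7, 10 and 13. In non-lesional replicates 3, 6, 9, 12 and 15 it stood at 709, 1240, 937, 2205 and 1111 CPM. In lesional replicates 2, 5, 8, 11 and 14 it stood at 510, 834, 876, 975 and 1424 CPM. The highest library was again non-lesional replicate 12 and the lowest was lesional replicate 2, so the lesional group held both one of the highest and the lowest libraries. *Hbb-bt*, the less abundant beta gene, ran from 125 to 257 CPM in WT, 147 to 624 CPM in non-lesional and 97.7 to 372 CPM in lesional libraries.

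*Alas2*, the haem synthesis enzyme of red cell precursors, had low counts, from 12 to 56 a library, which may include reads of *Apex2*, a gene that overlaps its 3′ end. Its level was 15.7, 10.6, 10.9, 5.12 and 9.49 CPM in WT replicates 1, 4, 7, 10 and 13. In non-lesional replicates 3, 6, 9, 12 and 15 it was 9.91, 11.2, 7.08, 22.7 and 10.2 CPM. In lesional replicates 2, 5, 8, 11 and 14 it was 14.2, 6.74, 8.89, 12.7 and 12.8 CPM. Non-lesional replicate 12 was the highest library here too. The libraries with the least globin, lesional replicate 2 and WT replicate 1, were among the 3 highest for *Alas2*.

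**Figure D1:**
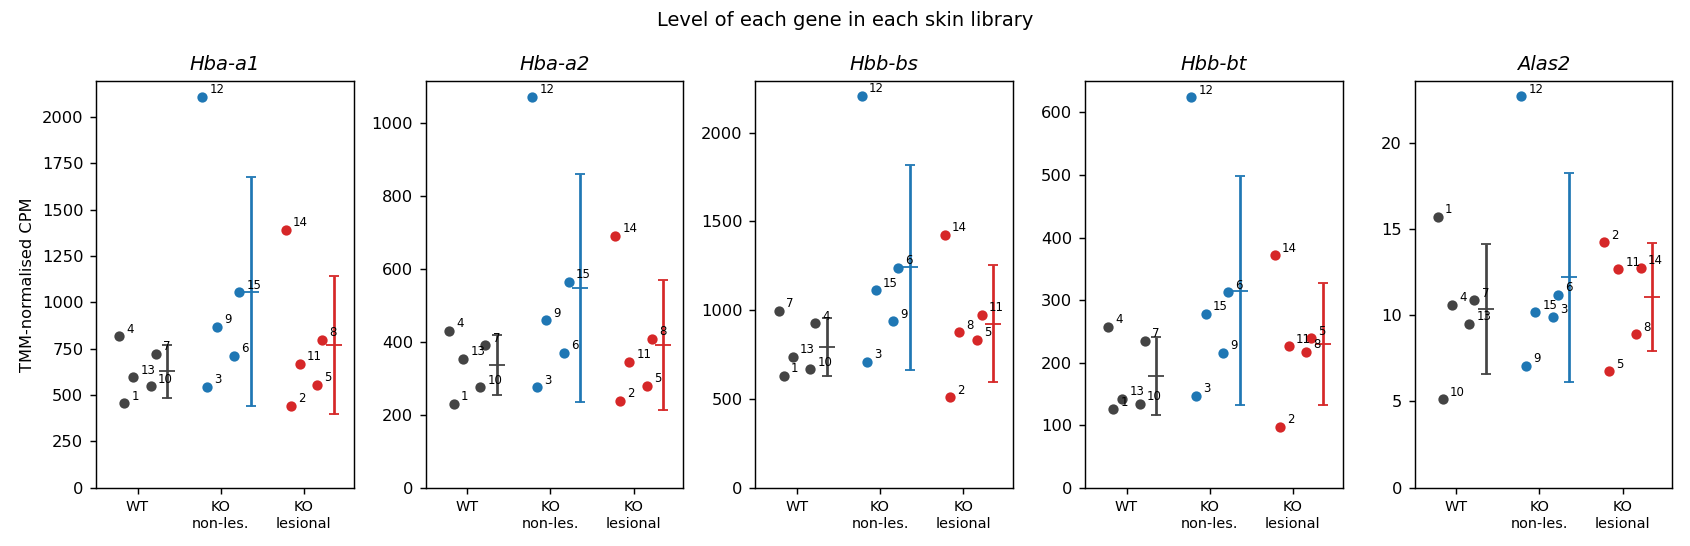
TMM-normalised CPM (vertical axes, linear from 0, a scale for each gene) of the 5 genes in each library of the WT, OTULIN-KO non-lesional and OTULIN-KO lesional groups. Points are libraries marked with their replicate number, and the bars beside them show the mean ± SD of 5 libraries. Non-lesional replicate 12 is the highest point for every gene, and the groups overlap in all 5 panels.

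The first comparison asked whether non-lesional OTULIN-KO skin differs from WT skin, and no member passed the test. The mean of each globin was higher in non-lesional skin. For *Hba-a1* it was 1057 ± 617 CPM against 628 ± 143 in WT (mean ± SD, n = 5 each), and for *Hbb-bs* 1240 ± 575 against 792 ± 162. On the log2 scale the fold changes were 0.75 ± 0.36 (SE) for *Hba-a1*, 0.71 ± 0.36 for *Hba-a2*, 0.65 ± 0.28 for *Hbb-bs* and 0.82 ± 0.41 for *Hbb-bt*. That of *Alas2* was 0.24 ± 0.32. In edgeR's quasi-likelihood test all 5 adjusted p-values were 1, and 0 of 13021 genes passed an adjusted p of 0.05 (0%). At an unadjusted p under 0.05 edgeR gave 411 genes (3.16%), and 1 of the 5 members, *Hbb-bs*, was among them. This count depended on the fit. At the same unadjusted threshold it was 3 of 5 with DESeq2 (*Hba-a1*, *Hbb-bs* and *Hbb-bt*, beside 1.72% of genes), 4 of 5, the globins, with edgeR not made robust (3.34%), and 0 of 5 with voomWithQualityWeights (3.37%) and without non-lesional replicate 12 (2.37%). It was also 0 without non-lesional replicate 15 (3.42%) or WT replicate 1 (2.7%), 10 (4.12%) or 13 (4.46%), and 4 without non-lesional replicate 3 (3.73%). Further fits with 0 members had no filter on low counts (4.53%) or mean endothelial log2 CPM as a covariate (3.43%). So did the fit with a block of consecutive label numbers (5.92%), described further on. The fold change was above 0 for 5 of 5 members and for 49.4% of all genes tested. DESeq2 called 1 gene (0.00368%) and limma's voomWithQualityWeights 0, neither of them adding a member.

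In exact permutation tests on the log2 CPM of single genes, two-sided and with a smallest possible p of 0.0079, the result was p = 0.127 for *Hba-a1*, 0.143 for *Hba-a2*, 0.0873 for *Hbb-bs*, 0.103 for *Hbb-bt* and 0.611 for *Alas2*. For each globin 3 of 5 non-lesional libraries were above all WT libraries, and for *Alas2* 1 of 5 was. For no member were the groups free of overlap, as they were for 0.66% of genes tested. With the counts of each pair summed, the fold change was 0.74 ± 0.35 for the alpha and 0.68 ± 0.30 for the beta genes. Without non-lesional replicate 12 the fold changes of *Hba-a1*, *Hba-a2*, *Hbb-bs* and *Hbb-bt* were 0.34, 0.31, 0.34 and 0.42, and that of *Alas2* became -0.12. The median of all genes tested was -0.003, and the 95% intervals of the globins reached from -0.12 to 1.75.

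The second comparison set lesional OTULIN-KO skin against WT skin, and again no member passed the test. Mean levels were 770 ± 371 CPM for *Hba-a1*, 392 ± 179 for *Hba-a2*, 924 ± 330 for *Hbb-bs*, 230 ± 97.4 for *Hbb-bt* and 11.1 ± 3.1 for *Alas2* in lesional libraries (SD, n = 5). The fold changes on the log2 scale were 0.29 ± 0.27, 0.22 ± 0.27, 0.22 ± 0.23, 0.36 ± 0.31 and 0.09 ± 0.30 (SE) in the same order, and 0.27 ± 0.27 and 0.25 ± 0.25 for the summed alpha and beta pairs. The adjusted p-values of edgeR's quasi-likelihood test were 0.934 to 0.989, and 0 of 12918 genes passed (0%), while 621 had an unadjusted p under 0.05 (4.81%) and none of these was a member. At this unadjusted threshold 1 of 5 members, *Hba-a1*, was found with mean endothelial log2 CPM as a covariate (beside 3.32% of genes). Without lesional replicate 2 it was 1 of 5, *Hbb-bt* (3.39%), and in the other fits none. The fold change was above 0 for 5 of 5 members and for 49.5% of all genes. DESeq2 called 14 genes (0.109%) and none of the 5, and voomWithQualityWeights called 0. Exact permutation p-values were 0.405 to 0.714. The groups overlapped for all 5 members, and 0.689% of genes tested had groups that did not overlap. Without lesional replicate 14 the fold changes of *Hba-a1*, *Hba-a2*, *Hbb-bs*, *Hbb-bt* and *Alas2* were -0.03, -0.08, 0.01, 0.12 and 0.04, and voomWithQualityWeights put the 4 globins at 0.03 to 0.17. In the same order, the fold changes without lesional replicate 2 were 0.44, 0.36, 0.38, 0.56 and -0.02. Among markers of other cell types the fold change was above 0 for 0 of 5 fibroblast genes (median -0.25), 2 of 12 endothelial genes (-0.18), 1 of 5 skeletal muscle genes (-0.09), 2 of 5 adipocyte genes (-0.004), 2 of 3 platelet genes (0.09) and 3 of 5 keratinocyte genes (0.29), and 0 of them passed an adjusted p of 0.05 in edgeR. Of 10 platelet genes, 7 had at most 10 counts in every library. The part of these markers in the globin values was not tested.

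The third comparison set lesional against non-lesional OTULIN-KO skin. The fold changes were -0.46 ± 0.39 for *Hba-a1*, -0.48 ± 0.38 for *Hba-a2*, -0.42 ± 0.31 for *Hbb-bs*, -0.45 ± 0.41 for *Hbb-bt* and -0.15 ± 0.32 for *Alas2* (SE). For the summed alpha and beta pairs they were -0.47 ± 0.39 and -0.43 ± 0.33. Adjusted p-values of edgeR's quasi-likelihood test were 0.973 to 0.986, and 0 of 12864 genes passed (0%), 543 had an unadjusted p under 0.05 (4.22%), and 0 of the 5 members was among these. The fold change was above 0 for 0 of 5 members and for 50.6% of all genes. DESeq2 also called 0 genes, as did voomWithQualityWeights. Exact permutation p-values were 0.325 to 0.817, and 0.622% of genes tested had groups that did not overlap, against 0 of the members. Without non-lesional replicate 12 the fold changes of the globins lay between -0.11 and -0.04, and that of *Alas2* was 0.21, whereas without lesional replicate 14 those of the globins lay between -0.79 and -0.64. Markers of other cell types were set beside them. The fold change was above 0 for 0 of 5 fibroblast genes (median -0.29), 0 of 5 adipocyte genes (-0.24), 0 of 5 skeletal muscle genes (-0.05), 2 of 11 endothelial genes (-0.18), 2 of 3 platelet genes (0.007) and 4 of 5 keratinocyte genes (0.27), beside a median of 0.003 for all genes. Of 10 neutrophil genes only 2 were tested, *S100a8* and *S100a9*, which hyperplastic epidermis also expresses, and both were above 0 (median 5.03). The summed level of the 10 was 3.44 to 222 CPM in non-lesional and 4.45 to 5188 CPM in lesional libraries, against 1.7 to 7.21 CPM in WT, and 6 of the 10 had at most 10 counts in every library. None of these genes passed an adjusted p of 0.05 in edgeR, and their part in the globin values was not tested. All 3 comparisons share groups, so their values are given side by side and are not independent.

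**Figure D2:**
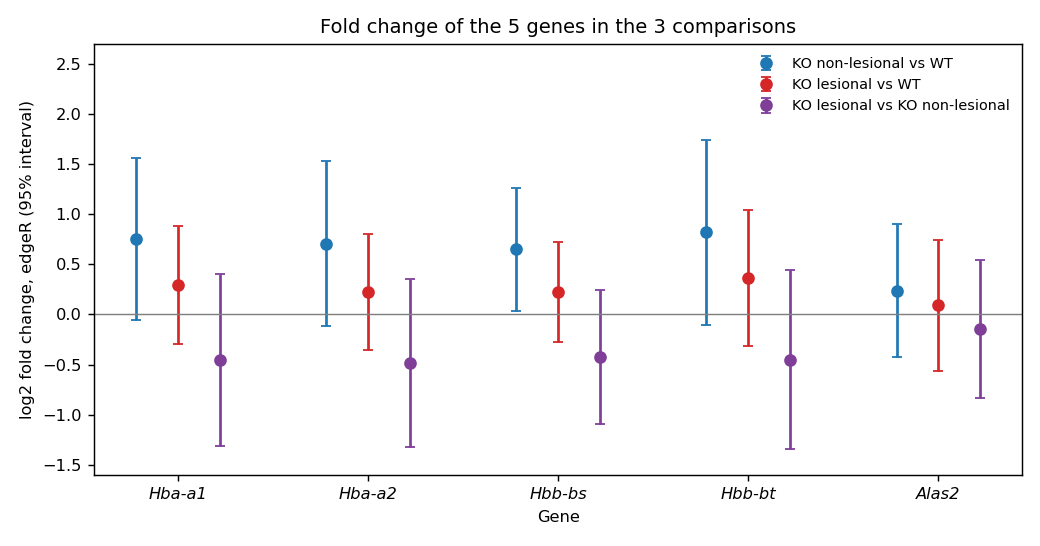
Log2 fold change (vertical axis) of the 5 genes in the 3 comparisons, as estimated by edgeR, with bars showing the 95% interval. For the globins the values lie near 0.7 between non-lesional and WT skin, and every interval includes 0 except that of *Hbb-bs* in that comparison, 0.04 to 1.26, which also reaches below 0 without non-lesional replicate 12 (-0.02 to 0.69).

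By mean CPM the order was non-lesional, lesional, WT for all 5 genes, but no neighbours in this order passed a test of their difference. Single libraries decided parts of it. Without non-lesional replicate 12 the log2 fold change of *Alas2* between non-lesional and WT skin was -0.12. Without lesional replicate 14 those of *Hba-a1* and *Hba-a2* between lesional and WT skin were -0.03 and -0.08. By median the order was the same for *Hba-a1*, *Hbb-bs* and *Hbb-bt*. For *Hba-a2* the medians were 459 CPM in non-lesional, 354 in WT and 345 in lesional libraries. For *Alas2* they were 12.7 CPM in lesional, 10.6 in WT and 10.2 in non-lesional libraries. In bulk skin, fewer red cells and less globin RNA per cell cannot be told apart.

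The spread within groups was much wider than counting error. The coefficient of variation of the 4 globins was 20.4% to 34.8% in WT, 46.3% to 58.4% in non-lesional and 35.7% to 48.1% in lesional libraries, whereas counting alone would give 2.0% to 5.0%. For *Alas2* it was 28.2% to 49.6%, and counting alone would give 19.9% to 21.3%. The values of the globins rest in part on the highest library of each OTULIN-KO group. Without non-lesional replicate 12, *Hba-a1* ran from 543 to 1055 CPM and *Hbb-bs* from 709 to 1240 CPM. Without lesional replicate 14 these genes ran from 442 to 797 CPM and from 510 to 975 CPM. In WT they ran from 456 to 818 CPM and from 631 to 997 CPM. Among 13446 genes, the within-group SD of log2 CPM was larger than that of 85.9% of genes for *Hba-a1*, 85.6% for *Hba-a2*, 75.6% for *Hbb-bs*, 90.8% for *Hbb-bt* and 77.8% for *Alas2*.

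The 4 globins varied together across libraries. Over 15 libraries Pearson's r of log2 CPM was 0.99 for *Hba-a1* with *Hba-a2* and 0.98 for *Hbb-bs* with *Hbb-bt*. Between an alpha and a beta gene it was 0.89 to 0.93, with Spearman's rho of 0.79 to 0.87. Among the 6 globin pairs the largest Benjamini-Hochberg adjusted permutation p over 10 pairs of members was 6.7e-05 for r and 0.0013 for rho, from 100000 permutations. Without the 2 libraries farthest from the median, r was 0.75 to 0.83 for alpha with beta pairs, and within groups it was 0.87 to 0.92.

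*Alas2* was less strongly correlated with the globins, although the difference between the correlations was not tested. Its r with the 4 globins was 0.36 to 0.42 and its rho 0.08 to 0.29, with adjusted permutation p-values from 0.15 to 0.19 for r and from 0.43 to 0.78 for rho. Without the 2 farthest libraries, 1 of which was non-lesional replicate 12 in each case, r was -0.20 to 0.29. *Alas2* counts per 1000 globin counts ran from 2.86 to 11.04, with ratios of 10.9 in WT replicate 1 and 11.04 in lesional replicate 2 and of at most 5.92 elsewhere.

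The *Alas2* count cannot be separated from that of a neighbour. The last 311 bases of its annotated transcript, chrX:150570328-150570638, lie in an exon of 1 of 10 annotated transcripts of *Apex2*, a nuclease gene on the opposite strand. The stated counting gave a read to every gene it overlapped and named no strand option, so that reads at the 3′ end of *Alas2* could be counted for *Apex2* as well, and reads of *Apex2* in the overlap for *Alas2*. The levels, ratios and correlations of *Alas2* given here may therefore hold *Apex2* reads. The *Alas2* count was below that of *Apex2* in 15 of 15 libraries from 22 against 50 counts in lesional replicate 8 to 40 against 50 counts in WT replicate 1. Over 15 libraries *Alas2* followed *Apex2* with r = 0.90 and rho = 0.74 (permutation p = 3e-05 and 0.0025, adjusted p = 6e-05 and 0.005 over 2 relations), with r = 0.77 without the 2 farthest libraries and 0.91 within groups. This relation was added after the overlap had been seen. Between *Hbb-bs* and *Apex2* r was 0.40 and rho 0.10 (adjusted permutation p = 0.14 and 0.72), and r was 0.25 without the 2 farthest libraries.

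**Figure D3:**
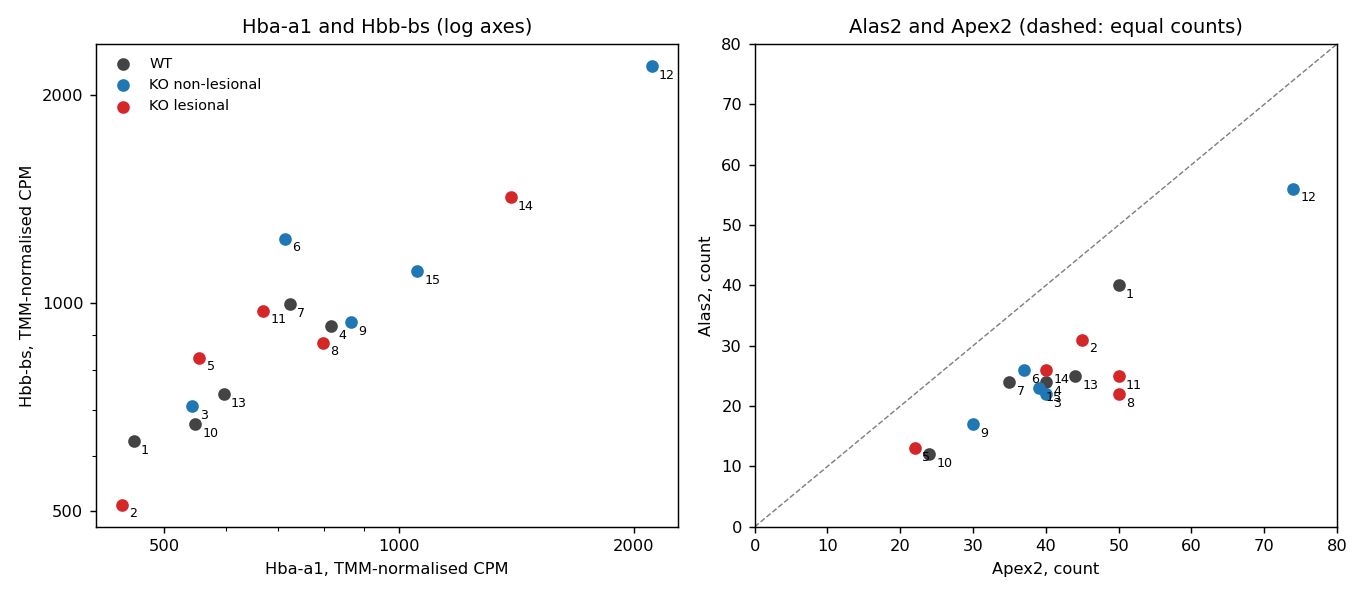
Left, TMM-normalised CPM of *Hba-a1* (horizontal, log axis) and *Hbb-bs* (vertical, log axis) in 15 libraries. Right, counts of *Apex2* (horizontal) and *Alas2* (vertical) in the same libraries, with a dashed line at equal counts. Points are libraries marked with replicate numbers, the pair of globins lies along a common line (r = 0.93), and all 15 *Alas2* counts lie under the dashed line.

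The proportions within each globin pair were steadier than the levels. *Hba-a1* made up 62.7% to 66.8% of the counts of the alpha pair, and the SD over 15 libraries, 1.03 percentage points, was close to the 0.97 that counting alone would give. The alpha genes share most of their 3′ windows, so this share also depends on how shared reads were assigned. A steady proportion of the transcripts and a fixed assignment of shared reads cannot be told apart here. *Hbb-bs* made up 77.7% to 83.9% of the counts of the beta pair, with an SD of 2.15 percentage points against 0.80 from counting. The alpha share of all 4 globins varied more. It was 41.1% in non-lesional replicate 6 (95% exact binomial interval 39.9% to 42.3%), 43.8% in lesional replicate 5 (42.2% to 45.4%) and 45.8% in lesional replicate 11 (44.3% to 47.3%). The other 12 libraries ran from 47.5% to 53.8%. The SD over all 15 was 3.94 percentage points against 0.72 from counting. Group means of this share were 49.8% ± 2.1 in WT, 50.04% ± 5.4 in non-lesional and 49.7% ± 4.6 in lesional libraries (SD, n = 5), so libraries within a group differed more than the groups did. Reads are not independent molecules, and these intervals cover counting error only.

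**Figure D4:**
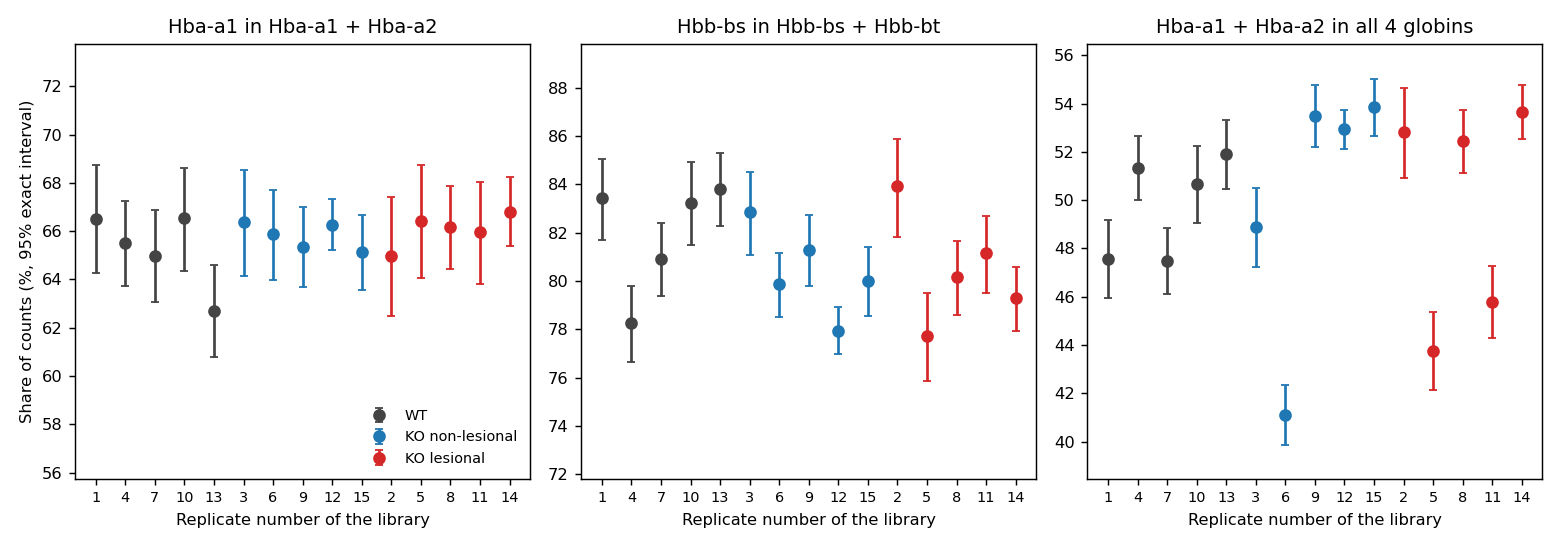
Share of counts in percent (vertical axes, each spanning the same number of percentage points and not starting at 0) for *Hba-a1* in the alpha pair, *Hbb-bs* in the beta pair and the alpha pair in all 4 globins, by library. Points are libraries coloured by group with 95% exact binomial intervals. The share as counted in the alpha pair, which also depends on how shared reads were assigned, varies little. Non-lesional replicate 6 and lesional replicates 5 and 11 lie lowest in the right panel.

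Other globins were looked at as a list of 12. The embryonic genes *Hba-x*, *Hbb-y*, *Hbb-bh0*, *Hbb-bh1*, *Hbb-bh2* and *Hbb-bh3* had 0 counts in all 15 libraries, which over 34609889 counts allows up to 0.087 CPM each. Only 2 of the 12 were abundant enough to be tested, *Mb*, the oxygen store of muscle, and *Cygb*, the cytoglobin of fibroblasts, and 0 passed in any comparison. Their fold changes between non-lesional and WT skin were -0.19 ± 0.36 and -0.17 ± 0.13 (SE).

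Markers of the erythroid lineage other than the globins were near the limit of detection. Of the 12 genes fixed for it, *Ahsp* had no row under that symbol and 11 were in the table, of which only *Alas2* was tested. The other 10, among them *Slc4a1*, the red cell anion exchanger, and the transcription factor *Gata1*, summed to 3 to 28 counts a library. The sum was highest in WT replicate 1, where *Slc4a1* alone gave 21 counts, and second in non-lesional replicate 12 with 21 counts. Elsewhere it was 3 to 14. The summed level of the list, *Alas2* included, ran from 8.52 to 26.7 CPM in WT, 9.99 to 31.2 CPM in non-lesional and 9.34 to 17.4 CPM in lesional libraries.

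The wider pathway showed no member that passed the test in any comparison. Of 14 haem synthesis genes 13 were tested, and between non-lesional and WT skin 7 were higher and 6 lower with a median log2 fold change of 0.08, beside -0.003 for all genes. Their most abundant members were *Cpox* and *Alas1*, the enzymes that act late and first in the pathway, with 0.08 ± 0.12 and 0.31 ± 0.13, and *Tmem14c*, a mitochondrial porphyrin carrier, with 0.23 ± 0.14 (SE). Of 18 red cell membrane genes 5 were tested with a median of -0.04, led by the ankyrin gene *Ank1* (0.16 ± 0.23), which muscle also expresses. Of 21 red cell enzyme and maturation genes 10 were tested with a median of 0.09, and their most abundant member was the peroxiredoxin *Prdx2* (-0.04 ± 0.11). The medians were -0.02 for 6 of 8 erythroid iron uptake genes, with *Tfrc*, the transferrin receptor, at 0.09 ± 0.18, and -0.19 for 5 of 10 transcription factors, with *Bcl11a*, the repressor of early globins, at -0.19 ± 0.15. For 11 of 13 haem breakdown and iron storage genes the median was -0.05, and *Fth1*, the ferritin heavy chain, stood at 0.18 ± 0.12.

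The same lists set lesional against WT skin with medians of 0.05 for haem synthesis, 0.01 for red cell membrane, 0.11 for enzyme and maturation, 0.04 for iron uptake, -0.16 for transcription factor and -0.01 for haem breakdown genes. Between lesional and non-lesional skin the medians were 0.01, -0.10, 0.05, -0.03, 0.03 and -0.04 in the same order. Many of these genes are also used by keratinocytes, fibroblasts and muscle.

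Other cell types were followed beside *Hbb-bs*, the most abundant member. Its r with the mean log2 CPM of endothelial genes was 0.21, with platelet genes -0.01, with keratinocyte genes -0.29, with fibroblast genes 0.05, with skeletal muscle genes 0.12 and with adipocyte genes 0.22. With *Krt6b* it was -0.37 and with the library total -0.02, and the smallest adjusted permutation p over these 8 relations was 0.88 for r and 0.65 for rho. Only 3 of 10 platelet genes entered the platelet mean, since 7 had at most 10 counts in every library, so it says little about platelets. The summed endothelial level was 351 to 477 CPM in WT, 360 to 403 CPM in non-lesional and 225 to 452 CPM in lesional libraries. With the endothelial score as a covariate the fold changes of the globins between lesional and WT skin were 0.33 to 0.55, and the part of vessels in the globin levels was not tested further.

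The genes whose log2 CPM was most like the mean of the 4 globins over 15 libraries were *Gm37914* (r = 0.83), *Carm1* (0.83), *Yipf2* (0.81), *Mfsd10* (0.78), *Tsr3* (0.77), *Spout1* (0.77), *Gm14232* (0.76), *Tmem205* (0.75), *E2f5* (0.75) and *Selenoh* (0.75). None is a gene of the lists above, and each was lower in level than the least abundant globin, with means of 7.16 to 42.4 CPM. Of 13441 genes, 28 had r of 0.7 or more and 24 had r of -0.7 or less. For *Alas2* the most alike was *Apex2* (r = 0.90), followed by *Kdm4c* (0.82), *Otud7b* (0.73), *4930478L05Rik* (0.71) and *Nup214* (0.70). These correlations are descriptions over libraries that share non-lesional replicate 12 as an extreme.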

How the data were processed

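RNA of whole skin was sequenced as QuantSeq 3′ FWD libraries. The authors clipped adaptors with cutadapt 2.10, mapped reads to GRCm38 with Subread and counted uniquely mapping primary matches over exons with featureCounts 2.0.1. Per the labels and the deposited files, the values are raw counts per gene, and featureCounts gave a match to every gene it overlapped. The strand setting and annotation release are not given in the sources used here. The authors also deposited CPM, each count over the library total. These were used only to check the table. The 92 spike-in rows sum to 0 and were left out.

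Counts were tested with edgeR 4.0.16 in R 4.3.3 (TMM, filterByExpr, robust quasi-likelihood F-test) on the 2 groups compared, with Benjamini-Hochberg adjustment over all genes and a threshold of 0.05. The SE is the absolute log2 fold change over the square root of F. CPM per library are TMM-normalised, and log2 CPM used a prior count of 2. Single genes were compared with exact permutation tests. Alternatives were DESeq2 1.42.0, limma 3.58.1, other normalisations and filters, covariates and leaving out each replicate. On simulated counts, of genes changed by 1 and by 2 on the log2 scale, edgeR called 78 of 99 and 99 of 99 between non-lesional and WT groups, 55 of 100 and 98 of 99 between lesional and WT groups, and 68 of 100 and 97 of 100 between lesional and non-lesional groups. It called 14 of 12569, 14 of 12451 and 10 of 12426 unchanged genes. The changed genes were drawn at random, and the globins vary more within groups than most genes. These shares therefore do not say how often a change in a globin would be called.

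The genes, lists and alternatives were chosen with earlier results of these data known. Named from each list are at most 3 genes with the highest mean CPM, plus any with an adjusted p under 0.05, and the 10 and 5 genes most like the globin mean and *Alas2*. Embryonic globins are named as a group, and *Hmox1* and *Alad* stand outside this rule. Sequences are from RefSeq (GRCm38.p6) and GENCODE M21 transcripts, and 5 of 5 genes had a promoter entry.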

Additional observations from a re-analysis of the deposited data

Results flagged for a closer look

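Within groups of 5, a library was marked where its gap to the nearest other library exceeded 0.71 of the whole range of the group. Of 33 groups looked at 3 were marked, and chance marks about 1 in 20. The *Alas2* level of non-lesional replicate 12, 22.7 CPM, stood apart from the other 4 non-lesional libraries by 0.738 of the range. The globin share of the counts of the same library, 0.616%, stood apart by 0.716. For the CPM of single globins the same gap in this library was 0.637 to 0.673. Its Y-linked expression was 0 CPM, and with Y-linked expression as a covariate the fold changes of the globins between non-lesional and WT skin were 0.56 to 0.69. The third was the ratio of *Alas2* to globin counts in WT replicate 1, 10.9 per 1000, which stood apart by 0.737 of the range. That library held 40 *Alas2* and 21 *Slc4a1* counts. The causes were not tested.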

How the results depend on the processing

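No member passed an adjusted p of 0.05 in any comparison under any alternative, and the smallest adjusted p of a member was 0.708. Of 342 alternative values of the 15 fold changes, 336 kept their direction. The number of genes called between non-lesional and WT skin was 0, but 1 with DESeq2, 18 without a filter on low counts and 0 to 5 with a replicate left out, 5 of them without non-lesional replicate 6. Between lesional and WT skin it was 0, but 14 with DESeq2. The 6 values that turned came from leaving out a replicate. *Alas2* between non-lesional and WT skin ran from -0.12 to 0.44, and turned without non-lesional replicate 12. *Alas2* between lesional and WT skin ran from -0.078 (without WT replicate 10) to 0.30, and was -0.02 without lesional replicate 2. *Hba-a1* and *Hba-a2* between lesional and WT skin ran from -0.029 to 0.44 and from -0.079 to 0.36, the lowest without lesional replicate 14. *Alas2* between lesional and non-lesional skin ran from -0.29 to 0.21, the highest without non-lesional replicate 12. Without the 2 farthest libraries, an alternative chosen after seeing the data, r of *Alas2* became -0.20 with *Hba-a1* and -0.17 with *Hba-a2*. Of the 10 genes most like the globins 3 remained by Spearman's rho and 5 with values centred within groups, and of the 5 most like *Alas2*, 1 and 3 remained. CPM over the library total moved no group mean by more than its SD. The groups share no replicate number, and the labels state no pairing. Their numbers interleave, however, and a block of 3 consecutive numbers, 1 library of each group, was tried after seeing the data. The deviations of a block's libraries from their group means correlated at 0.12 to 0.27 between non-lesional and WT skin and at 0.11 to 0.35 between lesional and non-lesional skin, where each library correlated best with its own block in 5 of 5, and at -0.09 to 0.26 between lesional and WT skin (3 of 5), a hint from the data and not the design. With this replicate block the globins stood at 0.56 to 0.70 between non-lesional and WT skin, with 8 genes called and no member, at 0.16 to 0.31 between lesional and WT and at -0.41 to -0.39 between lesional and non-lesional skin, both with 0 genes called, and edgeR's adjusted p of the members was 0.834 to 0.977. At this block the 95% interval of *Hbb-bs* between non-lesional and WT skin was -0.26 to 1.37. Each globin was higher in non-lesional than in WT skin in 4 of 5 blocks and lower in lesional than in non-lesional skin in 4 of 5 (*Hbb-bt* in 3), and lesional skin was above WT in 2 (*Hbb-bs*, *Hbb-bt*) to 4 (*Hba-a2*) of 5. With counts of 12 to 56, depth limits *Alas2*, and counts are not independent molecules.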

Other observations

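*Hmox1*, which encodes the inducible enzyme of haem breakdown, was named after its values were seen. Its log2 fold change was -0.48 ± 0.23 (SE) between non-lesional and WT skin and 0.63 ± 0.23 between lesional and non-lesional skin, and edgeR's quasi-likelihood test gave adjusted p-values of 1 and 0.973. The globins stood at 0.65 to 0.82 and at -0.48 to -0.42 in the same comparisons. Both comparisons hold the non-lesional libraries, so opposite signs in them are not independent. Of the 11 haem breakdown and iron storage genes tested, 5 were higher and 6 lower between non-lesional and WT skin. *Alad*, the second enzyme of haem synthesis and also named after its values were seen, stood at 0.44 ± 0.19 and -0.38 ± 0.19, with adjusted p-values of 1 and 0.973 from the same test.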
